A study of Mus musculus with 30 samples.

Results

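Neurospheres are floating clonal balls of cells that neural precursors form in serum-free medium when a growth factor drives them to divide. The comparison described here is between spheres grown in platelet-derived growth factor AA (PDGF-AA) with neurotrophin-3 (NT-3) and spheres grown in PDGF-AA alone. Samples were taken by their titles, and the rule gave 3 RNA samples with NT-3 and 6 without, which is 9 of the 15 RNA samples of the series. Each RNA had been hybridised to 2 Affymetrix chips, MOE430A and MOE430B, so the comparison rests on 18 of 30 arrays. All genes of both chips were used.

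Both groups came from the anterior entopeduncular area, a part of the basal ganglia of the mouse embryo at embryonic day 14, and were cultured over 7 days; the medium was DMEM:F12 supplemented with N2 and B27. The labels give no strain, genotype or sex. For spheres without NT-3 the listed PDGF-AA dose is 100 ng/ml, and for spheres with NT-3 both factors are listed at 100 ng/ul. Whether the change of unit is a real difference in dose cannot be told from the files, and the labels do not say whether the cultures of a group were separate, so that p-values reflect only how far these RNA samples vary, which may be technical. RNA concentration was listed as 100 ng/ul for the PDGF-AA samples and as 192, 287 and 171 ng/ul for NT-3 replicates 1, 2 and 3. Cells were not sorted: they were isolated by sphere formation in the named factor, and the labels of the NT-3 samples list purity and contaminating cells as unknown. The remaining 6 RNA samples, EGF spheres from the ganglionic eminences of the same embryonic day, entered the fit for the estimate of spread.

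PDGF-AA acts through the receptor tyrosine kinase Pdgfra, keeps oligodendrocyte progenitors dividing and is the classic mitogen of this lineage. NT-3 binds the receptor tyrosine kinase TrkC, the product of Ntrk3, with weaker binding to TrkB (Ntrk2) and to the low-affinity receptor p75 (Ngfr), and signals through Ras and ERK, PI3 kinase and phospholipase C gamma. It is known as a survival and proliferation factor for oligodendrocyte progenitors, which stop dividing before they make myelin proteins. The anterior entopeduncular area is one of the ventral sources of these progenitors and lies beside the domains that make GABAergic neurons.

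Of 13882 genes tested, 2943 (21.2%) differed at an adjusted p under 0.05 in a limma fit, which is the meaning of "called" below. Called higher with NT-3 were 1031 genes (7.43%), and 1912 (13.8%) were called lower. These shares are the background for every count of list members called below. The median over all genes tested was -0.13 on the log2 scale. Of the called genes, 316 of those higher and 1138 of those lower differed at least 2-fold. The 3 NT-3 values lay outside the range of the 6 PDGF-AA values for 2159 of the called genes. Over all genes tested, called or not, this held for 2733 (19.7%), 8.28% higher and 11.4% lower. These shares are the background for separate groups of single genes below. Another kept probe set existed for 1506 called genes. In 329 of these another probe set was called the same way and none the opposite way. In 99 another probe set was called the opposite way. All differences given below are log2 values of PDGF-AA with NT-3 minus PDGF-AA alone, on the scale log2(signal + 52) for MOE430A and log2(signal + 115) for MOE430B, with their standard error. They understate the change of dim genes.

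Some technical measures moved with NT-3. Fluidics runs were inferred from the station and hybridisation time recorded for each array. The NT-3 arrays shared no fluidics run with the PDGF-AA arrays, so run and condition cannot be told apart. The recorded fluidics protocol differed too. It was EukGE-WS2v5_450 for all NT-3 arrays except replicate 3 on MOE430B, and for no PDGF-AA or EGF array. On MOE430A NT-3 replicate 3 was in another run than replicates 1 and 2. Differences also ran with brightness: the median was -0.72 over the 1388 dimmest genes tested and 0.12 over the 1389 brightest. Spiked hybridisation controls averaged 0.45 lower with NT-3 on MOE430A and 0.27 lower on MOE430B (log2 signal differences of -0.45 and -0.27). The 3' to 5' signal ratio of Actb, a measure of RNA and labelling quality, was 0.509 higher (log2) on MOE430A. The exact two-sided permutation p was 0.0238, or 0.0635 after adjustment over 4 such ratios. By the same test Actb was 0.451 higher on MOE430B (p = 0.0476) and Gapdh 0.377 higher (p = 0.0357). Both were 0.0635 after adjustment. Gapdh on MOE430A was 0.148 higher (p = 0.452). The log2 ratios of the samples compared ran from 2.58 to 4.38. The correlation of log2 signals ran from 0.825 to 0.852 between NT-3 samples, from 0.871 to 0.911 between PDGF-AA samples and from 0.775 to 0.85 between the groups. The part of these measures in the results below was not tested. RNA was taken from whole spheres, so fewer cells of a type and less RNA per cell cannot be told apart.

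**Figure D1:**
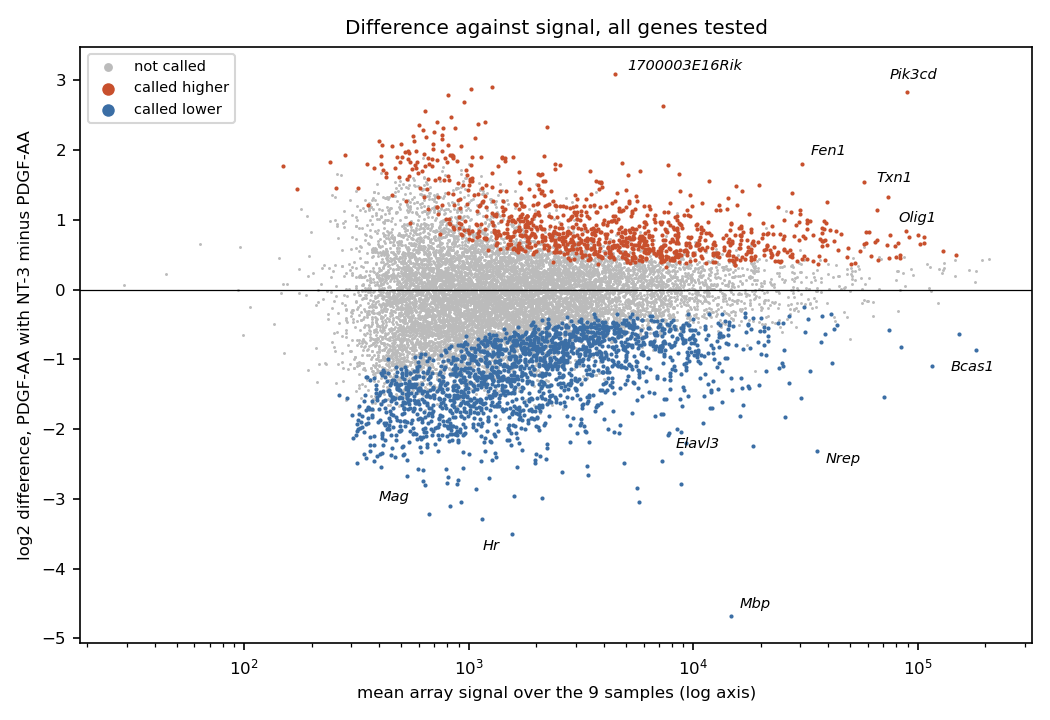
Each point is 1 of the genes tested, placed by its mean array signal over the 9 samples (log axis) and its log2 difference, PDGF-AA with NT-3 minus PDGF-AA. Orange points were called higher and blue points lower at an adjusted p under 0.05. Mbp at -4.68 and Pik3cd at 2.84 stand farthest from the rest at high signal, and the cloud tilts from below 0 on the left to above 0 on the right.

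The receptors that could bind the added ligand were measured first. Ntrk3, which encodes TrkC, read 602, 794 and 782 with NT-3 on its MOE430A probe set, against a lowest of 269, a median of 414 and a highest of 658 without. The groups overlapped and the difference of 0.73 ± 0.45 was not called (adjusted p = 0.264). Among the other 4 kept probe sets of Ntrk3, 1 was called higher (1.95 ± 0.55) and the others lay between -0.68 and 0.76. The mean over the Ntrk3 probe sets was called higher by a narrow margin (0.65, adjusted p = 0.0482), as was the brighter probe set that a filter at the 75th percentile of signal left (0.51, adjusted p = 0.0428). For Ngfr, which encodes p75, the NT-3 values of 578, 622 and 366 lay inside the PDGF-AA range of 60.6 to 937 and the difference was not called (0.78 ± 0.68, adjusted p = 0.443).

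Ntrk2 gave opposite answers from different probe sets. The MOE430A probe set used for the gene read 8699, 8697 and 9063 with NT-3 and from 5758 to 7745 without, a rise of 0.42 ± 0.11 (adjusted p = 0.015) that missed the threshold without NT-3 replicate 3 (adjusted p = 0.0507). Of the 5 other Ntrk2 probe sets, all on MOE430B, 4 were called lower, by -2.36 to -1.05, and the mean over all Ntrk2 probe sets was called lower (-1.24, adjusted p = 0.000263). Ntrk2 makes a full-length kinase and a truncated receptor, but the files do not say which transcript each probe set reads, so no direction can be given for the gene.

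The plot of all kept probe sets sets Ntrk2 beside Ntrk3, Pdgfra and Mbp. For Pdgfra the 3 probe sets had differences of the same sign, and for Mbp the dim probe sets departed from the bright ones.

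**Figure D2:**
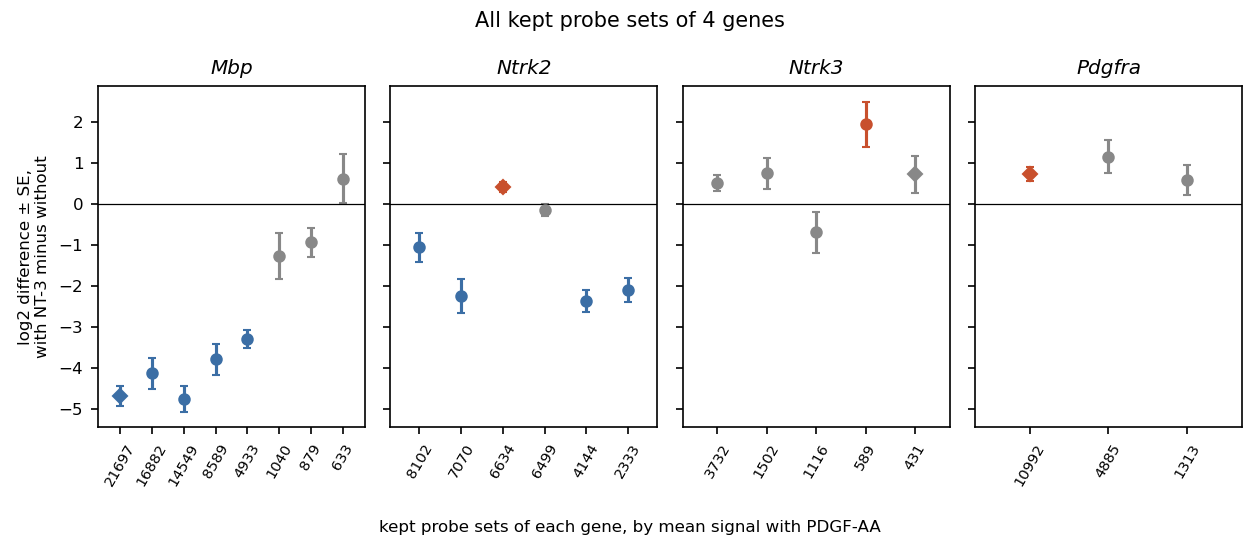
Log2 difference with its standard error for every kept probe set of Mbp, Ntrk2, Ntrk3 and Pdgfra, ordered from the brightest on the left by mean signal in the PDGF-AA samples, which is printed under each. Diamonds mark the probe set used for the gene, orange and blue points were called higher and lower at an adjusted p under 0.05 over all probe sets, and grey points were not called. The 4 blue points of Ntrk2 lie between -2.36 and -1.05, opposite in sign to its diamond at 0.42.

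The list of neurotrophin ligands, receptors and adaptors held 26 tested genes, of which 3 were called higher and 2 lower, with a median of -0.07. The 2 lower became 4 without PDGF-AA replicate 2 and 1 without PDGF-AA replicate 4 or 6. Gab1, a docking protein that links receptor tyrosine kinases to PI3 kinase, rose from between 7156 and 10286 to 14004, 14766 and 11902 (0.64 ± 0.12, adjusted p = 0.00144), but its other probe set gave 0.21 and was not called. Maged1, which binds the p75 receptor, rose by 0.71 ± 0.15 (adjusted p = 0.00306), from between 5066 and 7643 to 9639, 10751 and 9174. Frs3, an adaptor that recruits Grb2 to activated Trk receptors, fell from between 1331 and 2312 to 582, 939 and 869 (-1.17 ± 0.22, adjusted p = 0.00132). Shc1, another Trk adaptor, was called lower (-1.69 ± 0.53, adjusted p = 0.0321), a call that was lost without any single NT-3 sample and without PDGF-AA replicates 3, 4, 5 or 6. Bdnf, the TrkB ligand, read 218, 45.2 and 54 with NT-3 and had a median of 507 without, and missed the threshold (-1.73 ± 0.61, adjusted p = 0.0527); it was named after its values were seen.

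Pdgfra itself was higher in every NT-3 sample, at 23771, 15881 and 16173 against 9476, 11058 and 12411 as the lowest, median and highest PDGF-AA values (0.74 ± 0.18, adjusted p = 0.0074). Without NT-3 replicate 1, the highest of the 3, the difference was 0.55 and was no longer called (adjusted p = 0.0602). Its ligand genes moved the other way: Pdgfa fell from between 1637 and 3072 to 1057, 1361 and 1307 (-0.77 ± 0.20, adjusted p = 0.0133), with another Pdgfa probe set at 0.34 and not called. Pdgfc was called lower with overlapping groups (-1.15 ± 0.37, adjusted p = 0.0343). Without NT-3 replicate 1 neither ligand was called (Pdgfa -0.66, adjusted p = 0.0625; Pdgfc -1.07, adjusted p = 0.105), and the call of Pdgfc was also lost without NT-3 replicate 3 and without PDGF-AA replicates 1, 2 or 5.

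Transcripts that follow ERK activity were mostly not called: of 24 tested ERK feedback and delayed target genes, 3 were called higher and 1 lower, with a median of 0.17. Spry1, an inhibitor of receptor tyrosine kinase signalling that ERK induces, rose from between 3200 and 4825 to 7570, 8066 and 6600 (0.86 ± 0.15, adjusted p = 0.00115). Its relative Spry2 rose by 0.64 ± 0.14 (adjusted p = 0.0035), and its mean over probe sets was not called (0.66, adjusted p = 0.172). Dusp2, a nuclear phosphatase that inactivates ERK, fell from between 643 and 1275 to 131, 172 and 466 (-1.84 ± 0.38, adjusted p = 0.00296). Among 28 immediate early genes, 2 were called higher and 4 lower: Egr1 rose (0.67 ± 0.15, adjusted p = 0.00507; 21070, 25005 and 26988 against 13238 to 16685), Ier2 rose (0.88 ± 0.20, adjusted p = 0.00514), and Jun fell (-0.73 ± 0.14, adjusted p = 0.00155; 3644, 5830 and 4519 against 6647 to 8616). The count of 4 lower became 2 without any single NT-3 sample.

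The largest difference among the 13882 genes tested was in a myelin gene. Mbp, myelin basic protein, which compacts the myelin sheath, read 488, 879 and 1040 with NT-3 against 13848, 20673 and 33257 as the lowest, median and highest without, a 25.7-fold difference (-4.68 ± 0.24, adjusted p = 4.11e-09). The mean over its 8 kept probe sets, which includes dim ones, was -2.78. Mag, an adhesion protein of the innermost myelin layer, fell to 93.9, 66.5 and 86.1 from between 486 and 1360 (-2.80 ± 0.29, adjusted p = 1.49e-05). In Mal, a proteolipid that carries lipid rafts to myelin, the values were 75.2, 52.5 and 153 against 766 to 1562 (-3.10 ± 0.33, adjusted p = 1.94e-05), while a second, much dimmer Mal probe set gave 0.34 and was not called. Cnp, an enzyme of non-compact myelin that appears early in the lineage, fell less far, from between 22661 and 35426 to 11378, 16204 and 15401 (-1.09 ± 0.20, adjusted p = 0.00117).

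Of the 5 tested enzymes of myelin lipids 2 were called lower, with a median of -0.31. Ugt8a makes galactosylceramide, the signature lipid of myelin, and read 1617, 1224 and 1126 with NT-3 against 3080 to 5409 without (-1.56 ± 0.26, adjusted p = 0.000716). Fa2h, which hydroxylates the fatty acids of that lipid, fell to 364, 854 and 472 from between 1442 and 2274 (-1.62 ± 0.26, adjusted p = 0.000491). Plekhb1, expressed in oligodendrocytes, fell by 0.89 ± 0.19 (adjusted p = 0.0039), and Adamts4, a matrix protease of mature oligodendrocytes, showed -1.09 ± 0.26 (adjusted p = 0.0066). In each of these 4 genes the 3 NT-3 values lay below all 6 PDGF-AA values.

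The list was not uniform. Of 38 structural myelin genes on the chips 31 passed the filter on signal, 11 of these were called lower and 2 higher, and their median was -0.34. Without the filter 10 of 38 were called lower and 3 higher. Myelin genes whose values did not differ beyond the spread included Mobp (29.4, 225 and 46.1 against 22.4 to 176, adjusted p = 0.996), Opalin (2047, 831 and 1437 against 937 to 1790, adjusted p = 0.858) and Gal3st1, which sulfates galactosylceramide (826, 1827 and 1630 against 1435 to 2016, adjusted p = 0.463). Cldn11, a tight junction protein of myelin, read 329, 404 and 517, below the PDGF-AA range of 553 to 821, and was not called (-0.61 ± 0.31, adjusted p = 0.165). The 2 genes called higher were Pmp22 (0.57 ± 0.18, adjusted p = 0.0321) and Gsn, gelsolin, which cuts actin filaments (0.76 ± 0.26, adjusted p = 0.0434). Pmp22 lost its call without NT-3 replicates 1 or 2 and PDGF-AA replicates 1, 3 or 4, and Gsn without any single NT-3 sample and PDGF-AA replicates 1, 2, 3, 4 or 6. Summed signal over the 31 genes ran from 106000 to 109000 with NT-3 and from 137000 to 190000 without. Mbp, with means of 803 and 21697, made up a large part of that difference.

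Mag is shown as sequence because it fell steeply on the single probe set kept for it. The window holds the 250 bases before its first listed start in the RefSeq promoter table (GRCm38.p6, chr7:30914864-30915113, minus strand), with a match in capitals to ACAAAG on the opposite strand, the core that Sox factors read, 126 bases before the start.
Mag: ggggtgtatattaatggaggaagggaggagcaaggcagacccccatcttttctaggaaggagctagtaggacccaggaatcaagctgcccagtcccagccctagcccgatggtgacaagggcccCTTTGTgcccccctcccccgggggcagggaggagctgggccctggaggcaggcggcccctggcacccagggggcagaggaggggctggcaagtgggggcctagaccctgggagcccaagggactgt
The promoters of Mal and Ugt8a, searched in the same way, had no match to ACAAAG or to the other Sox motif, ACAATG. The motif ACAAAG, on either strand, was present in 6 of 25 myelin promoters found in the table (24%) and in 16.5% of 27025 genes. For ACAATG these shares were 12% and 11%.

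**Figure D3:**
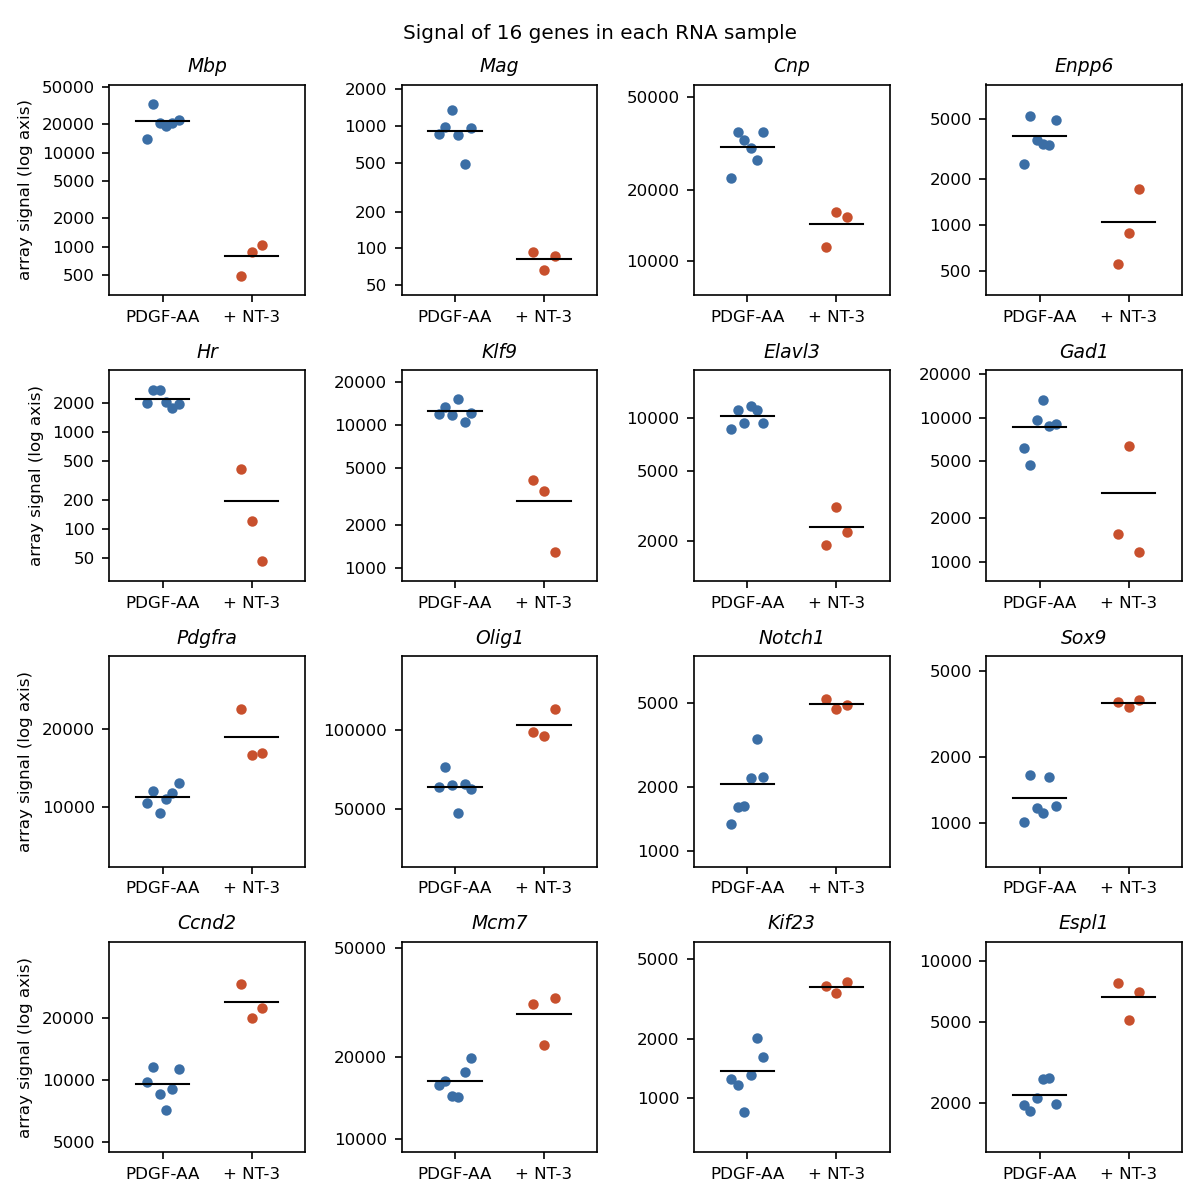
Array signal (log axis) of 16 genes in each RNA sample, blue for the 6 PDGF-AA samples and orange for the 3 samples with NT-3, with the mean of each group as a black line. The upper 2 rows show genes called lower and the lower 2 rows genes called higher. Gad1 is the one gene shown whose groups overlap, through NT-3 replicate 2 at 6321.

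Newly formed oligodendrocytes stand between progenitor and myelinating cell. Of 21 tested genes that mark them 7 were called lower and none higher by limma, with a median of -0.32, beside 13.8% lower over all genes tested. Enpp6, a choline phosphodiesterase that marks newly formed oligodendrocytes, dropped from between 2521 and 5231 to 555, 882 and 1719 (-1.84 ± 0.28, adjusted p = 0.00036). Cd82, a tetraspanin, went from between 800 and 1825 to 345, 137 and 208 (-2.18 ± 0.33, adjusted p = 0.000335), with another probe set at -0.25 and not called. Bcas1, which marks oligodendrocytes at the onset of myelination, fell from between 171226 and 279568 to 90681, 109991 and 151923 (-0.87 ± 0.19, adjusted p = 0.00441), and its mean over probe sets was not called (-0.60, adjusted p = 0.0866). Pik3r3, a regulatory subunit of PI3 kinase, fell by 0.93 ± 0.17 (adjusted p = 0.00117). Bmp4, a secreted signal that the list holds as a marker of this stage, read 197, 65.4 and 367 against 658 to 1396 (-2.03 ± 0.41, adjusted p = 0.00278). The count stayed at 7 or 8 lower without any single sample. Summed signal over the 21 genes ran from 154000 to 218000 with NT-3 and from 252000 to 377000 without. Bcas1 alone made up a large part of these sums, so they do not describe the list evenly.

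Progenitor genes went both ways. Of 34 tested, 5 were called higher and 7 lower, with a median of -0.03, and summed signal ran from 299000 to 360000 with NT-3 and from 221000 to 279000 without. Olig1, described below with the transcription factors, is on this list and made up a large part of these sums. Cspg4, the NG2 proteoglycan that defines these progenitors, read 9494, 6398 and 8567 against 2596 to 6274 (1.09 ± 0.30, adjusted p = 0.0159), and a second probe set was called in the same direction. The Cspg4 call was lost without NT-3 replicate 1 (0.98, adjusted p = 0.0713) or replicate 3 (1.05, adjusted p = 0.0542), and without NT-3 replicate 1 the count of progenitor genes called higher fell from 5 to 3. Tnr, tenascin-R of the matrix, went from between 3704 and 5831 to 1927, 2368 and 1880 (-1.18 ± 0.20, adjusted p = 0.000855). Cacng5, an auxiliary subunit of AMPA receptors, read 382, 92.3 and 175 against 653 to 1563 (-2.09 ± 0.37, adjusted p = 0.000971). The kainate receptor gene Grik1 fell by 1.55 ± 0.34 (adjusted p = 0.00438). Ugt8a, described above with myelin lipids, is also on this list.

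**Figure D4:**
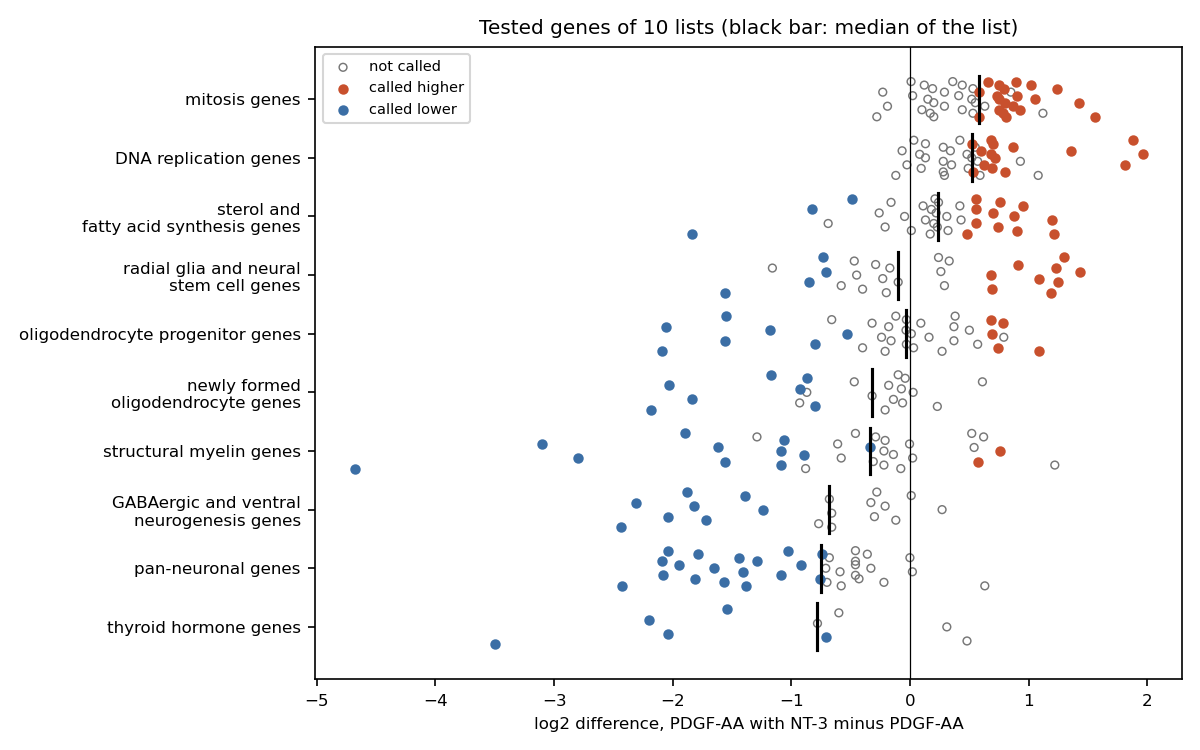
Log2 difference (PDGF-AA with NT-3 minus PDGF-AA) of every tested gene of 10 lists, each gene a point, spread vertically within its list for legibility only. Filled orange points were called higher, filled blue points lower and open points were not called, and black bars are list medians, from 0.58 for mitosis genes to -0.78 for thyroid hormone genes. The largest decrease, at -4.68, is Mbp.

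The transcription factors that define the lineage were mostly not called. Of 27 tested, 4 were called higher and 3 lower, with a median of 0.03. Olig1, needed for oligodendrocyte maturation, rose from between 48151 and 72005 to 98166, 95155 and 119726 (0.78 ± 0.13, adjusted p = 0.000716), a difference that shrank to 0.36 after quantile normalization and stayed called. Its neighbour Olig2, which specifies the lineage, read 5417, 5061 and 7262 against 4407 to 7884 (0.03 ± 0.19, adjusted p = 0.931). Sox10, which drives myelin genes with Myrf, read 9829, 11300 and 10893 against 6696 to 10312 and was not called (0.37 ± 0.26, adjusted p = 0.336). Nkx2-2, a repressor of Pdgfra in this lineage, read 2041, 1960 and 2158, above the PDGF-AA range of 1108 to 1583, and was not called (0.61 ± 0.26, adjusted p = 0.0983). Myrf read 173, 219 and 235, all below 248, the lowest PDGF-AA value, and was not called (-0.97 ± 0.53, adjusted p = 0.204).

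Among the members that were called, Sox9, which acts early in gliogenesis, rose from between 1003 and 1662 to 3603, 3395 and 3650 (1.45 ± 0.26, adjusted p = 0.00114). Sox8, a relative of Sox10, was called lower with overlapping groups (80.9, 788 and 1534 against 1343 to 3638, -2.01 ± 0.45, adjusted p = 0.00493), and the difference was -1.13 without NT-3 replicate 1. Id4, an inhibitor of helix-loop-helix factors that holds back oligodendrocyte differentiation, fell from between 2734 and 5297 to 1091, 2431 and 763 (-1.51 ± 0.29, adjusted p = 0.00189). Its relatives Id1, Id2 and Id3 were not called (adjusted p = 0.775, 0.73 and 0.861). Sox4 was called lower (-0.51 ± 0.18, adjusted p = 0.0488), a call lost without NT-3 replicate 1 or 3 and without PDGF-AA replicates 2, 3, 4, 5 or 6.

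Notch signalling is known to hold neural precursors undifferentiated. Of 13 tested targets and modulators of the pathway 2 were called higher and 2 lower, with a median of -0.19. Notch1, a receptor, rose from between 1350 and 3389 to 5233, 4708 and 4891 (1.30 ± 0.25, adjusted p = 0.00216). The target repressor Hes5 read 12008, 5559 and 8411 against 1823 to 5533 (1.43 ± 0.34, adjusted p = 0.00677), and Hes1 read 2661, 1096 and 2043 against 571 to 974 (1.25 ± 0.28, adjusted p = 0.00487). NT-3 replicate 2 was the lowest of the 3 for both targets. Other probe sets of Notch1 and Hes5 gave 0.50 and 0.67 and were not called, and the Notch1 mean over probe sets was not called either (0.90, adjusted p = 0.105). Mfng, which modifies Notch receptors with sugars, fell (60.9, 231 and 112 against 617 to 1039, -2.18 ± 0.45, adjusted p = 0.00301), as did Dner, a Notch ligand of neurons (-0.84 ± 0.17, adjusted p = 0.00284). Heyl, a target repressor, was called lower too (416, 229 and 412 against 402 to 1205, -1.03 ± 0.35, adjusted p = 0.0437), with overlapping groups and a call that was lost without any single NT-3 sample or PDGF-AA replicates 1, 3 or 5. Over the 24 tested genes of the pathway, 3 were called higher and 3 lower, with a median of -0.11.

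Of 27 tested radial glia and neural stem cell genes 9 were called higher and 4 lower, with a median of -0.10, beside 7.43% and 13.8% over all genes tested. Vim, the intermediate filament vimentin, rose from between 11788 and 21134 to 27825, 38075 and 31382 (0.91 ± 0.16, adjusted p = 0.0011), and both other probe sets were called in the same direction. Bmi1, a Polycomb protein needed for stem cell self-renewal, read 6597, 3131 and 3692 against 1641 to 2071 (1.19 ± 0.21, adjusted p = 0.00113). Gas1, a co-receptor for Sonic hedgehog, read 9582, 4721 and 6917 against 1607 to 4360 (1.23 ± 0.29, adjusted p = 0.00609). Slc1a3, the glutamate transporter GLAST of radial glia and astrocytes, rose by 1.09 ± 0.19 (adjusted p = 0.00107), with 4 other probe sets between -0.34 and 0.83, none of them called, and a mean of 0.44 that was not called. Nes, nestin, went down from between 3193 and 4127 to 2547, 1640 and 2054 (-0.85 ± 0.16, adjusted p = 0.00155), with another probe set at 0.13 and a mean that was not called (-0.36), and Cdh2, N-cadherin, fell by 1.56 ± 0.24 (adjusted p = 0.00036; mean -0.95). Sox2 was not called (-0.20 ± 0.14, adjusted p = 0.306).

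Thyroid hormone moves progenitors toward differentiation, and B27 supplies it to the medium. Of 9 tested genes of its receptors, cofactors and targets, 5 were called lower and none higher by limma, with a median of -0.78, and the summed signal ran from 11200 to 17700 with NT-3 and from 29200 to 34200 without. Hr, a corepressor that the hormone induces in brain, read 417, 121 and 45.8 against 1790, 2054 and 2759 as lowest, median and highest (-3.50 ± 0.35, adjusted p = 1.46e-05), and a second probe set gave -1.04 and was not called. Klf9, a direct target that promotes myelination, went from between 10445 and 15050 to 4107, 3442 and 1295 (-2.20 ± 0.25, adjusted p = 2.91e-05). This gene alone made up a large part of the difference in summed signal. All 3 kept probe sets of Klf9 were called lower, from -2.61 to -2.05. Thra, the main receptor in brain, fell by 0.71 ± 0.14 (adjusted p = 0.00209), and Dio2, which activates the hormone, by 1.54 ± 0.32 (adjusted p = 0.00337), but for both the mean over probe sets was not called (-0.15 and -0.72), and by such means 2 genes of the list were called lower. Rxra, the partner of the receptor, was called on one probe set (-2.04 ± 0.50, adjusted p = 0.00813) and stood at 0.83 on another, and its call was lost without NT-3 replicate 1.

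The pan-neuronal list holds genes shared by neurons of many kinds. Of 34 tested pan-neuronal genes 18 were called lower and none higher by limma, with a median of -0.75, against 13.8% lower over all genes. Elavl3, the neuronal RNA-binding protein HuC, fell from between 8724 and 11757 to 1903, 3131 and 2244 (-2.08 ± 0.19, adjusted p = 5.84e-06). The complexins Cplx1 and Cplx2, which clamp synaptic vesicle fusion, fell by 1.65 ± 0.18 (adjusted p = 2.78e-05) and 2.04 ± 0.23 (adjusted p = 2.91e-05), Cplx1 from between 16208 and 28222 to 6094, 8943 and 5627. Mapt, the microtubule protein tau, went from between 8137 and 11684 to 2854, 6796 and 3035 (-1.29 ± 0.26, adjusted p = 0.00289). Rbfox3, NeuN of mature neurons, read 6220, 9665 and 3009 against 14466 to 35368 (-1.81 ± 0.38, adjusted p = 0.00305), and was not called with no filter on signal (-1.39, adjusted p = 0.0907). Syn1, a synaptic vesicle protein, read 830, 1383 and 77 against 2105 to 3800 (-2.43 ± 0.49, adjusted p = 0.00263), and without NT-3 replicate 3 the difference was -1.39.

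NT-3 replicate 2 was nearest to the PDGF-AA samples for Elavl3, Cplx1, Mapt, Rbfox3 and Syn1. Summed signal over the 34 genes ran from 137000 to 264000 with NT-3 and from 237000 to 371000 without, so the groups overlapped. The count of pan-neuronal genes called lower was 25 without NT-3 replicate 2 and 13 without replicate 1 or without replicate 3. Nrep, a small neuronal protein that is on no list, fell from between 42294 and 55129 to 9941, 13241 and 6861 (-2.31 ± 0.18, adjusted p = 1.35e-06), and its other probe set was called at -1.66. Cadm3, a neural adhesion molecule, fell by 2.19 ± 0.19 (adjusted p = 3.57e-06) with a mean over probe sets of -1.19.

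The next list holds genes of GABAergic neurons and of the ventral domains that make them. Of 25 on the chips 19 were tested, and 8 of these were called lower and none higher by limma, with a median of -0.68, beside 13.8% lower over all genes tested. Without the filter 6 of 25 were called lower, and without NT-3 replicate 1 the count was 5. Lhx6, the factor of interneurons from the medial ganglionic eminence, read 280, 136 and 302 against 615 to 1712 (-1.88 ± 0.39, adjusted p = 0.00285). Zic1, a zinc finger factor of ventral and septal precursors, read 459, 451 and 378 against 1450 to 3979 (-2.44 ± 0.43, adjusted p = 0.000937), and another Zic1 probe set gave -0.48. Npy, neuropeptide Y of interneurons, fell to 265, 215 and 498 from between 750 and 1435 (-1.72 ± 0.32, adjusted p = 0.00161). Slc32a1, the vesicular GABA transporter, read 613, 2114 and 1166 against 2187 to 4357 (-1.39 ± 0.33, adjusted p = 0.00713) and lost its call without NT-3 replicate 1 (-0.96, adjusted p = 0.0572). Gad1, which makes GABA, read 1557, 6321 and 1177 against 4662 to 13368 (-1.82 ± 0.44, adjusted p = 0.00797), and without NT-3 replicate 3 it was not called (-1.36, adjusted p = 0.059).

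Other lists of neuronal function are given beside the 13.8% called lower over all genes tested. Of 20 tested neuropeptide and dense-core granule genes 5 were called lower and none higher by limma, led by Chgb, chromogranin B (1730, 4434 and 1560 against 4587 to 9762, -1.59 ± 0.28, adjusted p = 0.00106), and the count was 9 without NT-3 replicate 2 and 3 without replicate 1 or 3. Of 18 glutamate receptor genes 4 were called lower and 1 higher, and the higher call was lost without any one of the NT-3 samples or PDGF-AA replicates 2 or 5. The lower ones included Gria1, an AMPA receptor subunit (604, 1061 and 351 against 1638 to 3887, -1.95 ± 0.30, adjusted p = 0.000422), for which another probe set was called at -1.92. Of 28 ion channel genes 3 were called lower and none higher by limma: Cacna1b, the N-type calcium channel (446, 306 and 391 against 1538 to 3656, -2.49 ± 0.34, adjusted p = 0.000148), Kcna1 (-2.10 ± 0.36, adjusted p = 0.000834) and Kcnc1 (1405, 2252 and 1160 against 2167 to 3287, -0.90 ± 0.19, adjusted p = 0.0036). The Kcnc1 groups overlapped, 1 of its 3 other probe sets was called the opposite way (0.70), and its mean over probe sets was not called (-0.19, adjusted p = 0.595). The 3 of 28 channel genes are near the share called lower over all genes. With no filter on signal Cacna1b was represented by another probe set, at 1.16. Without NT-3 replicate 2, 6 channel genes were called lower. Of 30 tested regional identity factors 8 were called lower and 2 higher, and 4 of the 44 on the chips were called lower without the filter. The 8 became 4 without NT-3 replicate 1 or 3, and 5 without NT-3 replicate 2 or PDGF-AA replicate 1. Neurod1, a factor of neuronal differentiation on that list, read 103, 271 and 104 against 586 to 1263 (-2.21 ± 0.35, adjusted p = 0.000478).

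**Figure D5:**
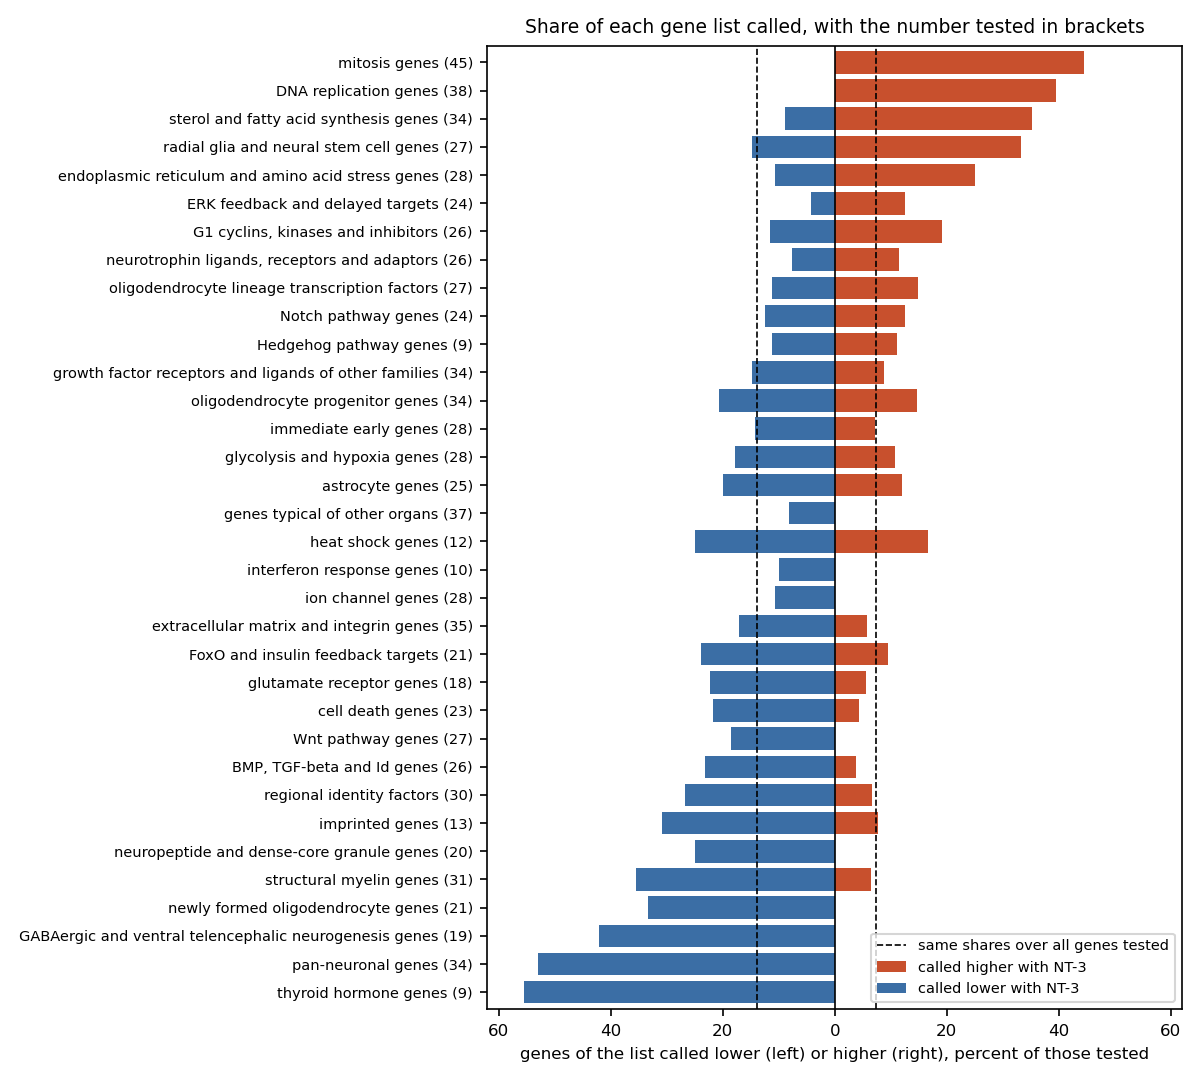
Share of the tested genes of each list called higher (orange, right) or lower (blue, left) with NT-3, in percent of those tested, for the lists with at least 9 tested genes, whose number stands in brackets. Dashed lines mark the shares over all genes tested, 7.43% higher and 13.8% lower. Mitosis and DNA replication genes extend to the right with no blue bar, and pan-neuronal and thyroid hormone genes extend to the left with no orange bar.

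Genes of cell division were counted for mitosis and for DNA replication. Of 45 tested mitosis genes 20 were called higher and none lower by limma, with a median of 0.58, and of 38 DNA replication genes 15 were called higher and none lower, with a median of 0.52, beside 7.43% higher over all genes tested. Espl1, separase, which cleaves cohesin at anaphase, rose from between 1816 and 2635 to 7822, 5158 and 7073 (1.56 ± 0.23, adjusted p = 0.000287). Kif23, a kinesin of the cytokinetic midbody, rose from between 857 and 2023 to 3664, 3400 and 3829 (1.42 ± 0.23, adjusted p = 0.000597). The spindle checkpoint genes Bub1b and Mad2l1 rose by 1.05 ± 0.20 (adjusted p = 0.00173) and 0.89 ± 0.17 (adjusted p = 0.00173), and Ube2c, the ubiquitin-conjugating enzyme of the anaphase-promoting complex, by 1.02 ± 0.20 (adjusted p = 0.00196). Hmmr, a spindle protein, was called on its brightest probe set (8050, 7293 and 9845 against 2722 to 4496, 1.24 ± 0.17, adjusted p = 0.000166), while its 3 others ranged from -0.40 to 0.27 and its mean of 0.30 was not called.

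Among replication genes Fen1, which trims Okazaki fragments, read 55089, 45971 and 70121 against 9163 to 30091 (1.81 ± 0.28, adjusted p = 0.000394). Mcm7, a subunit of the replicative helicase, read 31088, 22037 and 32820 against 14294 to 19730 (0.80 ± 0.13, adjusted p = 0.000687), and of the remaining 3 probe sets 2 were called higher too. Cdc6, which loads that helicase, rose by 1.36 ± 0.29 (adjusted p = 0.00323). Pcna, the sliding clamp, read 26970, 22125 and 25137 against 12477 to 19074 (0.69 ± 0.15, adjusted p = 0.00338). Summed signal ran from 195000 to 301000 with NT-3 and from 157000 to 185000 without for mitosis genes, with no overlap. NT-3 replicate 2 had the lowest value of the 3 for each of Espl1, Kif23, Hmmr, Fen1, Mcm7, Cdc6 and Pcna. The number called was sensitive to single samples: 12 mitosis genes without NT-3 replicate 1 and 11 without replicate 3, and 6 replication genes without replicate 3.

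Regulators of G1 were counted by role, with no test between the roles. Of 13 tested cyclins, kinases and E2F activators 4 were called higher and none lower by limma, with a median of 0.50, and of 13 inhibitors 1 was called higher and 3 lower, with a median of 0.08. Ccnd2, cyclin D2, rose from between 7147 and 11555 to 29149, 19980 and 22234 (1.31 ± 0.16, adjusted p = 7.25e-05), and of the remaining 5 probe sets 3 were called higher as well. Ccnd1 read 33778, 33799 and 32420 against 14100 to 25503 (0.79 ± 0.17, adjusted p = 0.00319), with another probe set called lower at -0.45 and a mean of 0.37 that was not called. Their partner Cdk4 rose by 0.64 ± 0.12 (adjusted p = 0.00124). Cdkn2c, the inhibitor p18, fell from between 5206 and 8064 to 3843, 3427 and 3297 (-0.80 ± 0.14, adjusted p = 0.00115), and Cdkn1c, the inhibitor p57, from between 1470 and 2408 to 928, 958 and 899 (-0.95 ± 0.21, adjusted p = 0.00423).

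The promoters of Espl1, Kif23 and Hmmr are shown because mitosis genes moved together and many of them are known to be driven by NF-Y at CCAAT boxes and by the cell cycle homology region. Each window is the 250 bases before the RefSeq start on GRCm38.p6, read along the gene, at chr15:102296043-102296292 (plus strand), chr9:61946800-61947049 (minus) and chr11:40733438-40733687 (minus). Capitals mark matches on either strand to the NF-Y motif CCAAT (its complement reads ATTGG), to the cell cycle motifs TTTGAA and also TTCGAA, to the Sox motifs ACAAAG and also ACAATG, or to the TATA box TATAAA.
Espl1: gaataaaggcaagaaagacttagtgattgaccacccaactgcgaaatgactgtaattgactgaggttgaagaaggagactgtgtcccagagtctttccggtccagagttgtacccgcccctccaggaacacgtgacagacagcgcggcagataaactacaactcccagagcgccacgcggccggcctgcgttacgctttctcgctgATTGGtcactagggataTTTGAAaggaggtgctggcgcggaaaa
Kif23: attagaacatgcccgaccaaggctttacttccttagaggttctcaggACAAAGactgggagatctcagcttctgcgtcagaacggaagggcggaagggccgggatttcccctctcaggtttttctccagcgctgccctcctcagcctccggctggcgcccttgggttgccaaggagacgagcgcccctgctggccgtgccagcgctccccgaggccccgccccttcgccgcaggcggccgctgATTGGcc
Hmmr: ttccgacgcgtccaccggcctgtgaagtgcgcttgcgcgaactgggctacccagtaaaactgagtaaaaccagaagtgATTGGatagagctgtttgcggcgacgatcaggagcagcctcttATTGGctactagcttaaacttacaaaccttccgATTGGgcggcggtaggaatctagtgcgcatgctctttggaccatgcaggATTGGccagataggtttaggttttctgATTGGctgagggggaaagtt
Espl1 had CCAAT 44 and TTTGAA 27 bases before the start, Kif23 had CCAAT 7 and ACAAAG 203 bases before it, and Hmmr had 5 CCAAT matches. CCAAT stood in 30 of 39 mitosis promoters found in the table (76.9%), in 9 of 25 myelin promoters (36%) and in 34.5% of 27025 genes, and TTTGAA in 38.5%, 12% and 16.3%. These are letter matches in a window, not measured binding.

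Sterol and fatty acid synthesis, which supplies membrane to dividing cells and to myelin, had 12 genes called higher and 3 lower of 34 tested, with a median of 0.23. Dhcr7, the last step to cholesterol, rose from between 6015 and 13870 to 23437, 17444 and 21095 (1.21 ± 0.29, adjusted p = 0.00732). Fdft1, squalene synthase, read 18809, 21211 and 24656 against 9205 to 14391 (0.95 ± 0.15, adjusted p = 0.000529), and Tm7sf2, a sterol reductase, rose by 0.76 ± 0.18 (adjusted p = 0.00575). Lss, lanosterol synthase, rose by 0.88 ± 0.16 (adjusted p = 0.00132) on the probe set used and was called lower, at -0.55, when probe sets with a suffix were left out. Fdps, which makes farnesyl diphosphate, fell (-0.83 ± 0.19, adjusted p = 0.00573), by 0.54 without NT-3 replicate 1. Elovl7, a fatty acid elongase, fell by 1.84 ± 0.44 (adjusted p = 0.00682), and its call was lost without NT-3 replicate 1 (adjusted p = 0.0518). The mean over probe sets called 6 of the list higher, and the Fdft1 mean was 0.08 (adjusted p = 0.865).

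Endoplasmic reticulum and amino acid stress genes had 7 of 28 called higher and 3 lower, with a median of 0.24, but only 4 higher without NT-3 replicate 1 and 3 without replicate 3. Atf4, the factor of the integrated stress response, read 10782, 12663 and 10520 against 5318 to 8645 (0.69 ± 0.15, adjusted p = 0.00437), with another probe set at -0.26 and a mean over both of 0.22 that was not called. Dnajb9, a chaperone of the unfolded protein response, fell from between 1949 and 2992 to 790, 1026 and 1610 (-1.02 ± 0.20, adjusted p = 0.00202). Heat shock genes had 2 of 12 called higher and 3 lower: Hspa8, the constitutive HSP70, rose (0.79 ± 0.14, adjusted p = 0.000976; 0.33 after quantile normalization and, as a mean over probe sets, 0.28 and not called), and Hspb1 fell (-1.24 ± 0.28, adjusted p = 0.00492). The 2 heat shock genes higher became 1 without NT-3 replicate 1 or 3 or PDGF-AA replicates 1 to 5, and the 3 stress genes lower became 1 without NT-3 replicate 1. Glycolysis and hypoxia genes had 3 of 28 called higher, 1 without NT-3 replicate 1 or 3, and 5 lower: Aldoc rose (0.75 ± 0.16, adjusted p = 0.00308) while the neuronal genes Slc2a3, a glucose transporter, and Eno2, an enolase, fell (-1.19 ± 0.20, adjusted p = 0.000871, and -1.33 ± 0.26, adjusted p = 0.00234).

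Other growth factor systems gave scattered calls. Of 34 genes of other growth factor families 3 were called higher and 5 lower, near the 7.43% higher and 13.8% lower over all genes tested. The same shares stand beside the BMP, Wnt and Hedgehog counts that follow. Igfbp2, which binds insulin-like growth factors, rose from between 860 and 1584 to 3730, 3500 and 4291 (1.55 ± 0.19, adjusted p = 7.4e-05), and Igf1, an inducer of myelination, fell from between 1667 and 2711 to 320, 1014 and 689 (-1.74 ± 0.31, adjusted p = 0.00109). Egfr fell on its brightest probe set (1486, 1388 and 1290 against 2561 to 6461, -1.54 ± 0.24, adjusted p = 0.000478), with others between -1.39 and 0.88 and a mean of -0.47 that was not called. Of 26 genes of BMP, TGF-beta and Id signalling 1 was called higher and 6 lower, the latter including Grem1, a secreted BMP antagonist (-1.60 ± 0.31, adjusted p = 0.00185). Of 27 Wnt genes 5 were called lower, none with separate groups, and the count was 2 without NT-3 replicate 1, NT-3 replicate 3 or PDGF-AA replicate 3, and 3 without PDGF-AA replicate 1 or 5. The 9 Hedgehog genes had Gas1 called higher and Gli3 lower (-1.10 ± 0.20, adjusted p = 0.00143), with another Gli3 probe set at 0.70 and a mean of -0.20 that was not called.

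FoxO and insulin feedback targets had 2 of 21 called higher and 5 lower, matrix and integrin genes 2 of 35 higher and 6 lower, cell death genes 1 of 23 higher and 5 lower, and imprinted genes 1 of 13 higher and 4 lower. Over all genes tested 7.43% were called higher and 13.8% lower, and the matrix and integrin counts are near these shares. Ddit4, an mTOR inhibitor on the first list, fell from between 3554 and 7790 to 3316, 1954 and 2223 (-1.07 ± 0.27, adjusted p = 0.0103). Itga6, the laminin receptor subunit that marks neural precursors, rose from between 34.9 and 725 to 1303, 1343 and 1234 (2.18 ± 0.47, adjusted p = 0.00412), and its other probe set was called at 1.71. Hspg2, perlecan of basement membranes, fell by 1.21 ± 0.22 (adjusted p = 0.00114). Bmf and Bbc3, which promote cell death, fell by 0.98 ± 0.19 (adjusted p = 0.00194) and 1.22 ± 0.31 (adjusted p = 0.0108), and with no filter on signal Bmf was represented by another probe set, at -0.32 and not called (adjusted p = 0.784). Bbc3 lost its call without NT-3 replicate 3, without which 2 cell death genes were called lower. Mest, an imprinted gene, rose from between 1412 and 2474 to 3363, 4044 and 5436 (adjusted p = 0.00282), and Meg3, an imprinted noncoding RNA, fell by 1.79 ± 0.26 (adjusted p = 0.000221). Of the 9 other Meg3 probe sets, which ran from -2.73 to 0.17, 3 were called lower, and without suffixed probe sets the gene stood at -0.12 and was not called (adjusted p = 0.923). Imprinted genes called lower numbered 2 without NT-3 replicate 1 or 3.

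Beyond the lists, the increase with the smallest p was that of Pik3cd, the delta catalytic subunit of PI3 kinase, which read 156998, 282987 and 190758 on one MOE430B probe set against 24290, 29425 and 32871 as lowest, median and highest (2.84 ± 0.17, adjusted p = 2.46e-08). A second Pik3cd probe set gave -0.16 and was not called, and with no filter on signal the gene was represented by another one, at -0.76. Pabpc1, which binds poly(A) tails, read 64681, 67004 and 60773 against 23328 to 30484 (1.26 ± 0.12, adjusted p = 1.09e-05), and Txn1, the redox protein thioredoxin, read 120006, 87593 and 99312 against 30081 to 41907 (1.54 ± 0.15, adjusted p = 1.09e-05). Eif3e, a translation initiation factor, rose by 1.33 ± 0.13 (adjusted p = 1.46e-05), and its mean over probe sets was 0.79. Sparc, a matrix glycoprotein, rose on 1 of 3 probe sets (1890, 2949 and 2430 against 287 to 684, 2.37 ± 0.38, adjusted p = 0.000529), the other 2 standing at -0.17 and 0.10. Several of the other large increases, Eepd1, Pknox1, Slc25a32, Sting1, Ski and Sall3, had NT-3 values between 1201 and 3094 against PDGF-AA medians between 95.4 and 420, and with no filter on signal Eepd1 (-0.50), Pknox1 (1.41), Slc25a32 (0.62) and Sting1 (1.01) were not called.

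The largest decreases beyond myelin and Hr included Parvb, an actin-linked adhesion protein (213, 239 and 383 against 2524 to 4539, -2.99 ± 0.25, adjusted p = 3.57e-06), Rtel1, a DNA helicase (673, 523 and 1625 against 4926 to 12095, -3.04 ± 0.31, adjusted p = 1.46e-05), and Ncoa3, a nuclear receptor coactivator (37.8, 81.2 and 43.2 against 611 to 1601, -3.22 ± 0.33, adjusted p = 1.46e-05). Other probe sets of Rtel1 and Ncoa3 lay between -0.24 and 0.24 and were not called, the mean for Rtel1 was -0.93, a filter at the 75th percentile left Ncoa3 at -0.24, and with no filter on signal Parvb was represented by another probe set, at 0.03. Cort, a neuropeptide of interneurons, read 161, 97.1 and 162 against a median of 1659 (-2.86 ± 0.52, adjusted p = 0.00125). Clstn3, a synaptic adhesion protein, read 90.8, 1267 and 55.4 against 1324 to 2738 (-2.96 ± 0.61, adjusted p = 0.00285). Gnb1, a G protein subunit, fell from between 23228 and 28451 to 10540, 14257 and 9989 (-1.17 ± 0.12, adjusted p = 1.46e-05), and its other probe set gave 0.21.

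Some genes differed more among the NT-3 samples than between the groups. The 10 with the widest range over the NT-3 samples, among genes bright enough, ran over 3.97 to 4.36 on the log2 scale and none was called. Shtn1, a protein of axon outgrowth, read 930, 3431 and 78.3 with NT-3 and had a PDGF-AA median of 3703 (-1.71 ± 0.66, adjusted p = 0.0752). Serpini1, neuroserpin of neurons, read 594, 2251 and 59.8 (adjusted p = 0.158), and without NT-3 replicate 2 Shtn1 and Serpini1 were both called (-2.71, adjusted p = 0.00632, and -2.30, adjusted p = 0.00741). Ralgapa2 read 127, 1199 and 4209 against 1930 to 2620 (adjusted p = 0.165) and was called lower without NT-3 replicate 3 (-2.07, adjusted p = 0.00466).

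Markers of other cell types were mostly dim. Of 17 microglia and macrophage markers 8 passed the filter and 3 of these were called lower, with summed signals from 3600 to 4710 with NT-3 and from 4670 to 8620 without, and 1 was called without NT-3 replicate 1 or 3. Of 12 endothelial markers 5 passed and 1 was called lower, Kdr (221, 589 and 427 against 769 to 1618, -1.54 ± 0.30, adjusted p = 0.00221), with overlapping sums of 2130 to 6660 and 2070 to 4390. Of 10 ependymal and choroid plexus markers 7 passed and 3 were called lower, led by Clic6 (1001, 612 and 1527 against 3685 to 4874, -2.03 ± 0.20, adjusted p = 1.46e-05), with sums of 3810 to 6060 and 6990 to 10700. Mural and mesenchymal markers had 6 tested of 16, with Cspg4 called higher and Col1a2 lower (-1.79, not called without NT-3 replicate 1 or 2), and sums of 10900 to 12800 and 7620 to 11700. The single red blood cell marker tested was not called, and of 10 interferon response genes tested 1 was called lower. Astrocyte genes had 3 of 25 called higher and 5 lower, the latter 3 without NT-3 replicate 1 or 2 or PDGF-AA replicates 1, 2, 3 or 4 and 2 after quantile normalization, with sums of 47100 to 57700 and 41300 to 51200. Genes typical of other organs, which mark no cell of these cultures, had 3 of 37 tested called lower and none higher by limma, with a median of -0.47. The part of other cell types in the results above was not tested.

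EGF spheres, set beside the same PDGF-AA samples, give a reference level for the genes named above. Because both differences share those samples, their likeness was not measured. EGF arrays shared their fluidics runs with PDGF-AA arrays, and NT-3 arrays shared runs with neither. A level common to EGF and PDGF-AA spheres therefore cannot be told apart from a shared run. A growth-condition label of the EGF spheres also names PDGF-AA, so whether they were grown without it cannot be told from the labels, and they came from another region. Mbp averaged 25552 in EGF spheres, near its PDGF-AA values, and Mag 1508. Klf9 averaged 17290 and Hr 2214. Txn1 averaged 108383, inside the range of the NT-3 samples, and Ccnd2 33012, above them. Pdgfra averaged 979 and Sox10 1081, under all samples of both groups compared here. Of the 1912 genes called lower with NT-3, 1603 were not called between EGF and PDGF-AA spheres, 246 were called lower there too and 63 higher. Of the 1031 called higher, 770 were not called, 215 were higher there too and 46 lower. The shared PDGF-AA samples by themselves favour calls in the same direction, so these counts do not measure likeness.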

How the data were processed

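RNA of 15 neurosphere samples had been hybridised to MOE430A and MOE430B arrays. The authors deposited linear array intensity, for which the submitters' processing notes name MAS5; the trimmed means show that each array was scaled alike. Both chips of an RNA were joined by title. Over the 100 probe sets carried by both chips, the MOE430A array correlated best with its own MOE430B partner in 12 of 15 samples, so the join rests on the titles. Values were taken as log2(signal + 52) on MOE430A and log2(signal + 115) on MOE430B, the 10th percentile of each chip. Probe sets at or above their array's median in at least 3 of 15 arrays were kept, and each gene was represented by 1 of them, from MOE430A where possible and then by the highest mean. Gene names came from the platform tables, updated through RefSeq (GRCm38.p6): 35041 probe sets had 1 symbol; none was named from the 691 on MOE430A and 245 on MOE430B with several, and 1555 and 7605 had no symbol. limma 3.58.1 (R 4.3.3) was fitted over all 15 samples with an intensity trend, and p-values were adjusted by Benjamini-Hochberg over 13882 genes at a threshold of 0.05. The number of arrays limits the precision. No 2 arrays held identical values.

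The lists and the genes described were chosen with earlier results of these data known. Genes named are the 12 largest increases and 12 largest decreases with separate groups, the neurotrophin and PDGF genes of the labels' factors, up to 6 members per list by adjusted p, all lineage factors and structural myelin genes, the 10 widest ranges over the NT-3 samples, and the 6 smallest adjusted p-values in each direction. Alternatives covered scaling, pseudocount, filter, probe set choice, array weights, run and replicate blocks, and leaving out each sample. The fit was tested on simulated data.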

Additional observations from a re-analysis of the deposited data

Results flagged for a closer look

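In 16 of the 254 named genes (6.3%) 1 PDGF-AA sample stood apart from the other 5, by the share of the group's whole range that lay between it and its nearest neighbour. Chance puts about 1 in 20 groups past this limit (5%). PDGF-AA replicate 5 was lowest for Cort (285.4, next 1523; share 0.816), Apod (94.95, next 504.9; 0.751), Ninj2 (83.68, next 543.4; 0.715) and Opalin (936.7, next 1434; 0.652). Replicate 6 was lowest for Nnat (6596, next 9561; 0.818) and Csf1r (647.5, next 1056; 0.653), and highest for 4930503L19Rik (576.1, next 172; 0.631). In replicate 2, Parvb (4539, next 2896; 0.768) and Cdkn2c (8064, next 6090; 0.642) were highest, and Shtn1 (730.9, next 2673; 0.701) and Lrp6 (221.7, next 807.1; 0.641) lowest. Replicate 3 was lowest for Chga (1851, next 2701; 0.789) and Pkm (9155, next 11430; 0.634) and highest for Bid (1121, next 145.9; 0.7). Replicate 1 was highest for Atp10b (796.9, next 311.1; 0.662) and 1700003E16Rik (3759, next 1170; 0.644). The group of 3 NT-3 samples was too small for this measure.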

How the results depend on the processing

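The count of called genes was 2943 and lay between 2480 and 2955 under the other scalings, pseudocounts, filters and choices of probe set. It was 2266 in a fit on the 9 samples of both conditions only, 3136 with each chip fitted alone, and 1897 with array weights (616 higher), where 3068 probe sets were called. Leaving out 1 sample gave 2195 to 2958 genes, 662 to 1061 higher (662 without NT-3 replicate 1) and 1533 to 1897 lower, and 3741 to 4986 probe sets. Median centring moved the share of lower calls from 65% to 58.6%. The 3' to 5' differences ranged, leaving out 1 sample, from -0.0231 to 0.407 (Gapdh, MOE430A), 0.411 to 0.66 (Actb, MOE430A), 0.277 to 0.416 (Gapdh, MOE430B) and 0.311 to 0.64 (Actb, MOE430B). The adjusted permutation p of Actb on both chips was 0.0476 without PDGF-AA replicate 2 or 5 or NT-3 replicate 2. So was that of Gapdh on MOE430B without either PDGF-AA replicate, and on MOE430A without NT-3 replicate 2. Without any other sample no ratio was under 0.05. Same-numbered NT-3 and PDGF-AA samples did not deviate together (correlations of 0.00138, -0.0352 and 0.0514), so these values give no sign that the numbers pair the samples. With the replicate number as a block 9 genes were called (2 higher, 7 lower) and 47 probe sets. In that fit some PDGF-AA samples had no NT-3 sample of the same number, and the block left little to estimate the spread from. Its count is therefore not comparable with the others. Signs turned, mostly because another probe set then stood for the gene, with no filter for Eepd1 (-0.50), Pik3cd (-0.76), Parvb (0.03), E2f3 (-0.05), Cacna1b (1.16), Grid1 (0.04), Grik3 (-0.03), Maf (0.92) and Wnt4 (0.57); with the mean of probe sets for Ntrk2 (-1.24), Laptm5 (0.53) and Lrp6 (0.08); and without suffixed probe sets for Depp1 (-0.32), Mal (0.34), Rxra (0.83), Hmmr (-0.40), Lss (-0.55), Xbp1 (0.27), Laptm5 (1.63) and Armc8 (-0.46). Fzd5 stood at 0.54 with the filter at the 75th percentile and with a filter balanced over the groups, alone or after quantile normalization, under which Laptm5 stood at 1.42 and 1.45; the balanced filter was chosen after seeing the data. Dim genes are limited by signal over background.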

Other observations

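Some gene families outside the lists were counted after their values were seen, so no test is given. Of 44 cytosolic ribosomal protein genes tested, 20 were called higher and 2 lower, with a median of 0.42 on the log2 scale, beside 7.43% higher and 13.8% lower over all genes. Rplp2, of the ribosomal stalk, rose by 1.14 ± 0.13 (limma adjusted p = 3.71e-05) and Rpl8 by 0.88 ± 0.12 (adjusted p = 0.000146). Probe sets for this family can read near-identical pseudogenes, so single members are uncertain. Most of the family read far above the chip medians of 555 and 866. Among the 1389 brightest genes tested, 338 were called higher and 178 lower. The part of brightness in the family counts here was not tested. Of 76 mitochondrial ribosomal protein genes 16 were called higher and 1 lower (Mrps23, -0.90 ± 0.15, adjusted p = 0.000665), with Mrpl28 at 1.20 ± 0.16 (adjusted p = 9.37e-05). Complex I of the respiratory chain had 12 of 44 called higher and none lower by limma, though its median was -0.02. Proteasome genes had 8 of 46 called higher and 3 lower, and translation initiation genes 10 and 4 of 46, among them Eif2a at 1.82 ± 0.24 (adjusted p = 0.000117) and Eif4a2 at -0.89 ± 0.11 (adjusted p = 7.25e-05).

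Families of axon guidance and vesicle release were counted in the same way. Semaphorins, plexins and ephrins had 3 of 41 called higher (7.32%) and 7 lower (17.1%, median -0.46), near the shares over all genes, led by Sema4c (1460 to 4900 with NT-3, 9100 to 13200 without, adjusted p = 5.38e-05), and synaptotagmins and syntaxins had 1 of 26 higher (3.85%) and 8 lower (30.8%, median -0.51). Of 16 olfactory receptor genes tested 7 were called lower and none higher by limma (median -1.14), and 8 of 39 without the filter on signal (median -0.51). These receptors belong to nasal sensory neurons, and their signals lie among the dim genes. The median difference was -0.72 over the 1388 dimmest genes that passed the filter, which can itself favour decreases there.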
